A study of Mus musculus with 22 samples.

Results

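The 8 arrays described here hold RNA of anterior neural tubes from mouse embryos exposed to arsenic, 4 taken at GD8:15 and 4 at GD9:12. GD stands for gestational day, followed by the hour. They were chosen by their titles, which mark them as treated and give the stage, and are 8 of the 22 arrays of the series. Each array carried the RNA of 1 sample on a CodeLink UniSet 10K Bioarray, a one-colour oligonucleotide array. All embryos came from Folr2-/- dams. Folr2 encodes a cell-surface folate receptor, and the dams of the controls lacked it too.

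The dams of the arsenic groups were injected intraperitoneally with sodium arsenate, 9.6 mg of arsenic per kg of body weight, at GD7:12 and again at GD8:12. GD8:15 was thus 3 h and GD9:12 24 h after the second dose. The control dams received water, 10 µL per g, at the same times, and gave 4 arrays at GD8:15 and 3 at GD9:12, none of which is an arsenic array. The intermediate stage, GD9:00, had 4 control and 3 arsenic arrays. Nothing in the labels ties the arrays to separate litters, so a p-value here reflects only how far these samples spread, and part of that may be technical. They give neither strain background nor the age of the dams.

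Over this interval the neural folds of the mouse head bend, meet and fuse, while the forebrain, midbrain and hindbrain acquire their separate gene programmes. Secreted Fgf and Wnt proteins made at the midbrain-hindbrain boundary pattern the tissue on either side, and Zic and Wnt genes mark its dorsal edge. Arsenic compounds react with thiol groups and provoke oxidative and proteotoxic stress. Cells answer such stress with the haem-degrading enzyme Hmox1 and with the integrated stress response, in which Atf4 drives genes for amino acid supply. The difference GD9:12 minus GD8:15 in the arsenic arrays therefore spans both a day of development and the hours after the last dose. The contrast alone does not tell these apart, so the control difference over the same stages is given beside it.

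Values are quantile-normalised log2 intensities, and a difference is the mean at GD9:12 minus the mean at GD8:15. A probe was called where its adjusted p in limma, a linear model with a moderated variance, was under 0.05. Of 10500 probes, 7830 were bright enough to be tested. Of these, 1082 were called (13.8%), 566 higher at GD9:12 (7.23%) and 516 lower (6.59%), and 477 of them differed at least 2-fold (6.09%). The 4 arrays of each stage did not overlap for 908 of the 1082, against 20.4% of all tested probes. The median standard error (SE) of a difference was 0.184.

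These counts carry 2 limits. In the arsenic arrays the stage cannot be told apart from the opening number of the title codes, which is left unexplained in the labels. All 4 titles at GD8:15 share 1 such number and all 4 at GD9:12 share another. With this title series as a fixed term the median SE was 0.371 and 7 probes were called. Among the 1082 were 4 of them, Adck1, Rbm14, Nelfcd and probe 7207, which has no symbol. The 2 numbers of the arsenic titles meet within a group only in the GD8:15 controls, replicate 3 against replicates 2 and 4. The adjustment of the arsenic difference thus rests on those arrays. The authors' scaling was also used in place of quantile normalisation. With the arrays then centred on the median, 72.7% of 1591 called probes were higher, against 52.3%. As deposited, with array means of 600 at GD8:15 and 1000 at GD9:12, 90.4% of 1389 were higher. Of the 7830 tested probes 1157 rose and 434 fell with the centred scaling, and 1255 rose and 134 fell as deposited. With cyclic loess, another normalisation, 560 rose and 531 fell. Counts of a list under these scalings are to be read against those numbers. Without arsenic GD9:12 replicate 2, 694 probes were called.

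Pairs of arrays of 1 stage had a median correlation over the tested probes of 0.941 (12 pairs), and pairs from the 2 stages 0.874 (16 pairs). Arsenic GD8:15 replicate 3 lay apart on the first principal component (-43.5, the other 3 between -20.6 and -11.1), and runs of low signal covered 6.35% of the probes of replicate 4. Without these arrays the counts were 1014 and 937. Folr2 lay at percentile 2.93 of mean intensity, below the filter, at 6.93 ± 0.20 (SD, n = 4) at GD8:15 and 7.15 ± 0.22 (SD, n = 4) at GD9:12. Of 11 neural tube markers, 8 were matched on the array and tested, among them Six3, Nes, Otx2, Pax6 and Sox2, and 6 lay above the median intensity. Genes with 2 tested probes showed how far a symbol can be trusted: over 94 such genes the 2 probes correlated across arrays with a median r of 0.049. The 2 probes had the same sign for 46 of the 94, and for 13 of the 27 with at least 1 probe called. Part of the probes may therefore not measure the gene whose symbol they carry, and which ones was not tested. Each value below stands for its probe, under the symbol of the platform annotation.

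The 15 highest differences ranged from 3.31 down to 2.16 and were led by Pkm, Ccdc88a and Sox11. Pkm, the pyruvate kinase whose embryonic form serves proliferating cells, stood at 7.50, 7.95, 7.71 and 7.57 on the 4 arrays at GD8:15 and at 10.93, 11.76, 11.23 and 10.04 at GD9:12. Every later array was above every earlier one, a difference of 3.31 ± 0.41 (SE), or 9.89-fold (adjusted p = 9.52e-05). Ccdc88a, an actin-binding regulator of cell movement, rose 8.68-fold, from between 7.29 and 8.28 to between 10.76 and 11.19.

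Sox11, a transcription factor of neural progenitors and young neurons, read 8.74, 9.21, 8.14 and 9.28 at GD8:15. At GD9:12 it read 11.73, 12.36, 11.59 and 11.98, a rise of 3.07 ± 0.39 (8.42-fold, adjusted p = 0.000113) for this probe. A second tested probe of Sox11 was not called, at -0.37, and the 2 probes correlated across arrays with an r of -0.727, so the direction of Sox11 is not settled. H2az1, a histone variant, rose by 2.84 ± 0.48 and Top1, the DNA topoisomerase that relieves torsion during transcription, by 2.75 ± 0.37. Top1 reached 13.25 on arsenic GD9:12 replicate 4 and between 12.45 and 12.53 on the other 3 arrays of its stage.

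Zic1, a zinc-finger factor of the dorsal neural tube that is needed for its development, was dim at GD8:15 (7.23, 7.36, 7.13 and 7.41). It was at 9.06, 10.13, 10.35 and 10.28 at GD9:12. The stages were far apart, though replicate 1 of GD9:12 was lower than the rest, and the difference was 2.67 ± 0.23 (6.38-fold, adjusted p = 2.11e-06). The other genes among the 15 highest were Mfsd14a, Nr2f2, Atp5md, Fgf18, Snrpc, Epha7, Gas1, Ccnt2 and Mterf3, with differences from 2.53 down to 2.16.

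**Figure D1:**
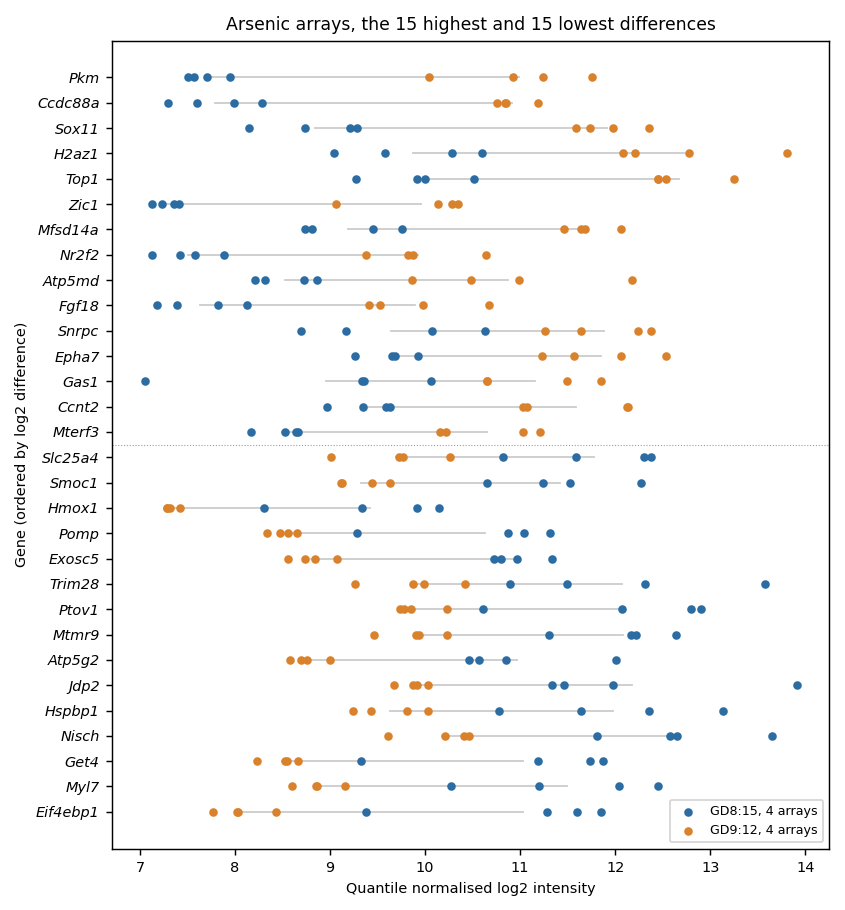
Normalised log2 intensity (x axis) on the 4 arsenic arrays at GD8:15 (blue) and the 4 at GD9:12 (orange) for 30 called genes whose stages do not overlap, the 15 of highest difference above the dotted line and the 15 of lowest below it; grey lines join the stage means. Pkm lies between 7.50 and 7.95 at GD8:15 and between 10.04 and 11.76 at GD9:12, and the single low GD8:15 points of Eif4ebp1 (9.38), Get4 (9.33) and Pomp (9.29) all belong to replicate 3.

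The largest falls were led by Eif4ebp1, the repressor that holds back cap-dependent translation. It stood at 11.85, 11.29, 9.38 and 11.60 at GD8:15 and at 8.03, 8.43, 8.02 and 7.77 at GD9:12. Replicate 3 was the low array at GD8:15 but still above all later ones, and the gene fell by 2.97 (SE 0.51, 7.82-fold, adjusted p = 0.000914). Get4 and Hspbp1, which assist membrane-protein insertion and Hsp70, fell by 2.54 and 2.35. Pomp, the assembly factor of the proteasome, fell by 2.12, and Exosc5, a subunit of the RNA exosome, by 2.16 (adjusted p = 2.94e-05).

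Slc25a4, the mitochondrial ADP/ATP carrier, went from 12.37, 11.59, 10.82 and 12.31 to 9.72, 9.77, 10.26 and 9.00, and so fell by 2.08 (adjusted p = 0.00284). With the authors' scaling centred on the median it was at -1.20 (adjusted p = 0.168). Trim28, a co-repressor that silences retroelements, fell by 2.18 with an SE of 0.63. Its call was lost without GD8:15 replicate 1 or 2, or without GD9:12 replicate 1, 2 or 4, and with the centred scaling (-1.22, adjusted p = 0.259). The remaining genes of the 15 lowest were Myl7, Nisch, Jdp2, Atp5g2, Mtmr9, Ptov1, Hmox1 and Smoc1, with differences from -2.62 to -2.10. The centred scaling also took the calls of Mtmr9 (-1.28, adjusted p = 0.0557), Ptov1 (-1.28, adjusted p = 0.075) and Smoc1 (-1.27, adjusted p = 0.084), and put Nisch, Hspbp1 and Jdp2 at -1.52, -1.44 and -1.36.

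Most of these differences were also found in the controls. Of the 15 highest genes 12 were called in the control difference as well, and of the 15 lowest 13, where the background of called probes was 7.71% (604 of 7830, 3.77% higher and 3.95% lower). Of the 1082 probes called under arsenic, 1050 (97%) had the same sign in the controls, against 74.5% of all tested probes. The probes called in both numbered 413, which was 38.2% of the arsenic calls and 68.4% of the control calls, and all 413 went the same way. Across tested probes, which are not independent replicates, the arsenic and control differences correlated with a Pearson r of 0.769 and a Spearman rho of 0.677. They came from different arrays that were normalised together.

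No probe passed the test of the difference between the arms, that is of the arsenic stage difference minus the control one in the limma fit (0% of 7830, lowest adjusted p 0.784, 325 at an unadjusted p under 0.05). The median SE of this difference was 0.27, larger than that of either arm. Single genes may therefore differ between the arms by amounts this number of arrays could not resolve.

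**Figure D2:**
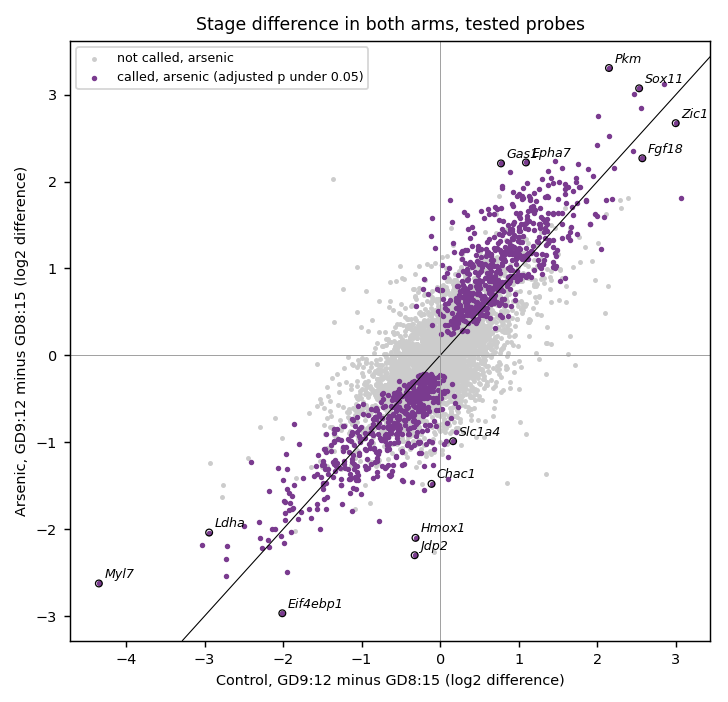
Log2 difference GD9:12 minus GD8:15 in control arrays (x axis) and in arsenic arrays (y axis) for 7830 tested probes; purple points were called under arsenic, the black line marks equal differences and circles mark named genes. Sox11, Zic1 and Fgf18 lie near the line, while Hmox1 (-2.10 against -0.31), Jdp2 (-2.30 against -0.32) and Chac1 (-1.48 against -0.11) fell under arsenic and lie near 0 in the controls.

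The genes of the integrated stress response and of endoplasmic reticulum stress formed, of the 38 lists examined, the one with the largest share of falls. Of its 25 tested genes, 8 fell (32%, against 6.59% of all probes) and 3 rose (12%, against 7.23%), and the list's median difference was -0.38 against -0.04 over all probes. In the controls 1 of the 25 fell and none rose, where 3.95% and 3.77% of all probes did, with a median of -0.11. The list rested on the scaling in part: with the authors' scaling centred on the median 5 fell and 4 rose, and as deposited 4 fell and 5 rose. The genes that rose, Pdia4, Canx and Wars, encode 2 proteins of folding in the endoplasmic reticulum and a tRNA synthetase. Pdia4 lost its call without GD9:12 replicate 3, Wars without GD9:12 replicate 2, and Canx without GD8:15 replicate 4 or GD9:12 replicate 1, 2 or 4.

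Chac1, which breaks down glutathione and is a target of Atf4, stood at 8.94, 8.45, 9.31 and 9.19 on the arsenic arrays at GD8:15. At GD9:12 it stood at 7.58, 7.47, 7.54 and 7.39. The stages did not overlap, and Chac1 fell by 1.48 (SE 0.22, 2.79-fold, adjusted p = 0.000358). The control arrays lay between 7.63 and 7.70 at GD8:15 and between 7.53 and 7.58 at GD9:12, so that the later arsenic arrays were at the level of the controls and the earlier ones above it.

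Stc2, a secreted glycoprotein induced by the same pathway, read 8.41, 8.48, 7.93 and 8.26 under arsenic at GD8:15 and 7.33, 7.25, 7.16 and 7.04 at GD9:12. It fell by 1.08 (SE 0.17, adjusted p = 0.00052), and the control difference was -0.08 ± 0.18. Atf5, an Atf4-related factor, went from 8.52, 8.97, 9.32 and 8.90 to 7.98, 7.46, 8.03 and 8.25, a fall of 1.00 (SE 0.18, adjusted p = 0.00125). Slc1a4, a carrier of neutral amino acids, went from 8.00, 8.34, 8.68 and 8.76 to 7.42, 7.53, 7.51 and 7.36, a fall of 0.99 (SE 0.21, adjusted p = 0.00381). The control differences of these 2 genes were -0.10 ± 0.19 and 0.16 ± 0.22. For Chac1, Stc2, Atf5 and Slc1a4 every earlier arsenic array lay above every later one and above every control array at GD8:15.

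Atf4 itself read 12.90, 13.91, 13.13 and 13.49 at GD8:15 and 11.65, 11.99, 12.22 and 11.88 at GD9:12, a fall of 1.42 (SE 0.31, adjusted p = 0.00567). With the scaling as deposited its difference was -0.27 (adjusted p = 0.695). Asns, the asparagine synthetase, fell by 1.09, but not past the threshold without arsenic GD8:15 replicate 1 or 4 or GD9:12 replicate 4, nor with the authors' scaling. Hsp90b1, a chaperone of the endoplasmic reticulum, fell by 1.77 under arsenic and by 1.93 in the controls, and was at -0.83 under arsenic (adjusted p = 0.289) with the authors' scaling centred on the median. Atf3 and Ddit3, further factors of this response, had differences of -0.91 (adjusted p = 0.0878) and -0.58 (adjusted p = 0.154).

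Hmox1, which belongs to the list of Nrf2 targets, was plotted with these genes. Under arsenic it stood at 10.15, 9.33, 8.31 and 9.91 at GD8:15 and at 7.42, 7.31, 7.28 and 7.29 at GD9:12. The later arrays lay close together and the earlier ones were spread over nearly 2 log2 units, with replicate 3 lowest. Hmox1 fell by 2.10 (SE 0.35, 4.29-fold, adjusted p = 0.000725), while the control difference was -0.31 ± 0.38. The 4 control arrays at GD8:15 lay between 7.57 and 7.69. In the integrated stress response list, 6 of 25 genes had an unadjusted p under 0.05 in the test between the arms, against 4.15% of all tested probes. They were Chac1 (0.000521), Stc2 (0.000831), Slc1a4 (0.00129), Atf5 (0.00287), Atf4 (0.00385) and Hspa5 (0.0224), and Hmox1 stood at 0.00259. None passed after adjustment. Hspa5, the main chaperone of the endoplasmic reticulum, went the other way from the first 5, with 0.89 under arsenic (adjusted p = 0.12) and -0.49 in the controls.

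The arsenic arrays at GD9:00 were split for these genes. Replicates 1 and 3 of Hmox1 read 9.37 and 9.20 there, and replicate 2 read 7.55, within the control range of that stage. Chac1 read 8.45 and 8.76 against 7.40, and Slc1a4 8.70 and 8.23 against 7.43. Replicate 2 was the lowest of the 3 for all 6 plotted genes.

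**Figure D3:**
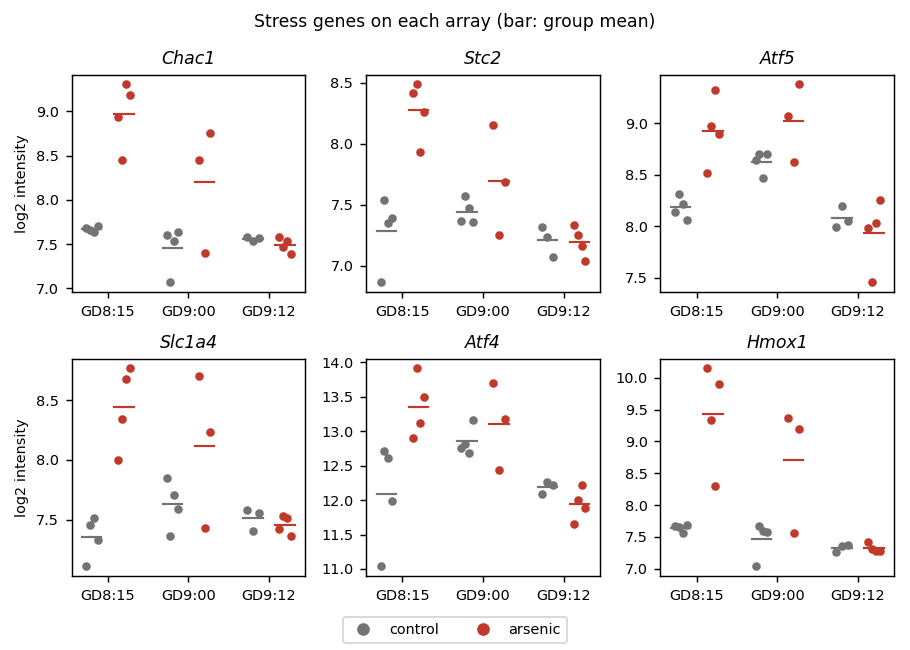
Normalised log2 intensity (y axes, which do not start at 0) of 6 stress genes on each array at the 3 stages, control in grey and arsenic in red, with bars at group means. Chac1 lies between 8.45 and 9.31 on the arsenic arrays at GD8:15 and between 7.39 and 7.58 at GD9:12, where the arms lie together, and 1 arsenic array at GD9:00 is low in every panel.

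Promoter sequences are shown for the 2 of the 5 called genes Chac1, Stc2, Atf5, Slc1a4 and Atf4 whose window holds the letters TGATGNAA. These are the core of the composite element that Atf4 binds together with C/EBP factors. A window runs from 250 bases before to 50 bases after the gene start, from RefSeq on GRCm38.p6, and both strands were searched. The 5 genes were picked from the 8 falls of the integrated stress response list. The windows of the rest, Asns and Hsp90b1 among them, are not described here. The 5 genes have 6 windows, 2 for Atf5, and the other 4 windows do not hold these letters. Among all 32851 mouse windows of this length 1304 hold them (3.97%). Both sequences are written 5′ to 3′ in the direction of the gene, and the capitals mark the match, which lies on the opposite strand. The Chac1 window is chr2:119350992-119351291 on the plus strand, with the match starting 193 bases before the gene start, and the Slc1a4 window is chr11:20332664-20332963 on the minus strand, with the match starting 4 bases before it.
Chac1: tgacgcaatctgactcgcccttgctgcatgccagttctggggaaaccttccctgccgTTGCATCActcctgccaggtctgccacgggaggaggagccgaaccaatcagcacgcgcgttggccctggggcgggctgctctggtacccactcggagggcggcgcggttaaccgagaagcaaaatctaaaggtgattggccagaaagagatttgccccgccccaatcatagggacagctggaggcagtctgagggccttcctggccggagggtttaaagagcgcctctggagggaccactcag
Slc1a4: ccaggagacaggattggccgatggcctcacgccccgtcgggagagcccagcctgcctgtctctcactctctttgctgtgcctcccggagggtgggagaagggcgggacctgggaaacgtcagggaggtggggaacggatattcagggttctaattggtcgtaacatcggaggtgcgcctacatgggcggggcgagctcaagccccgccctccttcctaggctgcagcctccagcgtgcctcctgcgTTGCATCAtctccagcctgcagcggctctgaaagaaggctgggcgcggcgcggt
The same 8 letters stand in capitals in both. The match describes the sequence alone, and the arrays did not measure binding.

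Other defences against reactive compounds were covered by the lists of Nrf2 targets and of heat shock proteins. Of 23 tested genes for antioxidant enzymes and Nrf2 targets 3 fell (13%, against 6.59% of all probes) and 1 rose (4.35%, against 7.23%), the median being -0.28. The direction of the list is not settled, since with the authors' scaling as deposited 1 fell and 4 rose, with a median of 0.04. The falls were Hmox1, Slc7a11, the cystine carrier, whose call was lost without any 1 of the 8 arrays, and Gpx2, a glutathione peroxidase, whose fall of 0.58 was matched by one of 0.56 in the controls. Keap1, the adaptor that holds Nrf2 in check, rose by 1.36 under arsenic and 1.63 in the controls. Of 15 heat shock genes, whose median was -0.36, 1 fell (6.67%, against 6.59% of all probes) and none rose. It was Dnajb1, by 0.48, at an adjusted p of 0.0499 that did not hold under 16 of 20 other settings. Hspa1a had a difference of -0.73 (adjusted p = 0.161). Jdp2, a leucine-zipper partner of Jun proteins, fell by 2.30 (SE 0.54, adjusted p = 0.00883), from 11.33, 11.46, 13.91 and 11.98 to 10.03, 9.68, 9.91 and 9.87. Of 20 genes of the p53 pathway and apoptosis none was called in limma, with differences from -0.61 to 1.05 and a median of -0.01. With the authors' scaling 2 rose centred on the median and 3 as deposited, where 1157 and 1255 of all 7830 tested probes rose.

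Genes that divide the brain into regions formed, of the same 38 lists, the one with the largest share of rises: 6 of 19 rose (31.6%, against 7.23%) and none fell, 17 were positive against 45% of all probes, and the median was 0.38. In the controls 4 of the 19 rose, where 3.77% of all probes did, with a median of 0.46. With the authors' scaling centred on the median 10 rose and none fell.

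Fgf18, a ligand made at the midbrain-hindbrain boundary, stood at 7.18, 7.82, 7.38 and 8.13 and later at 9.41, 9.52, 9.98 and 10.67. The rise of 2.27 ± 0.30 (4.82-fold, adjusted p = 0.000149) had a control value of 2.57 ± 0.33. En2, an Engrailed homeobox factor of the midbrain and anterior hindbrain, went from 6.76, 7.85, 7.18 and 7.78 to 9.08, 9.14, 8.97 and 9.54 (1.79 ± 0.32, adjusted p = 0.00152), close to the control rise of 1.85 ± 0.35. En1, its relative, went from 9.38, 10.47, 10.05 and 10.02 to 11.81, 10.93, 12.03 and 11.48 (1.58 ± 0.39). All these stages were apart on every array.

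Nr2f2, the nuclear receptor also called COUP-TFII, rose from between 7.13 and 7.88 to between 9.38 and 10.64 (2.42 ± 0.44, adjusted p = 0.0015). Mab21l2, needed for eye development, rose by 1.34 and Emx2, a forebrain homeobox factor, by 0.32, the latter not past the threshold without GD9:12 replicate 2. Otx2 and Six3, which mark the forebrain and midbrain from earlier stages, differed by 0.01 and 0.21 and were not called. Egr2, a marker of hindbrain segments, stood at 9.16, 8.86, 8.65 and 7.10 at GD9:12 against 7.44 to 7.99 before, a difference of 0.76 that was not called (adjusted p = 0.178), and its control value was -1.23 ± 0.40.

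Of 18 genes for dorsoventral patterning 2 rose (11.1%, against 7.23% of all probes) and none fell, with a median of -0.05. With the authors' scaling 6 rose (centred on the median, where the list's median was 0.40) or 5 (as deposited). They were Zic1 and Wnt3a, a ligand of the dorsal midline, which went from 8.07, 7.69, 7.55 and 7.58 to 8.85, 9.28, 9.13 and 8.92 (1.32 ± 0.22, adjusted p = 0.000665). Its control rise was 1.43 ± 0.23. Gli1, a target of hedgehog signalling, was at -1.02 (adjusted p = 0.0658) with 0.09 in the controls. Of 14 Hox genes none was called in limma, with differences from -0.34 to 0.22. With the authors' scaling centred on the median 2 of them rose, as did 1157 of all 7830 tested probes.

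Among 44 ligands, receptors and feedback genes of the Wnt, Fgf and Bmp pathways 5 rose (11.4%, against 7.23% of all probes) and 1 fell (2.27%, against 6.59%). Besides Fgf18 and Wnt3a the rises were Spry1, an inhibitor induced by Fgf signals (1.60 ± 0.35), Tcf7l2, a transcription factor of Wnt signalling (1.36 ± 0.27), and Lrp5, a Wnt co-receptor (0.79 ± 0.23). The receptor Fzd2 fell by 0.90. Lrp5 lost its call without GD8:15 replicate 1 or GD9:12 replicate 1 or 4, and Fzd2 without GD8:15 replicate 1 or 4 or GD9:12 replicate 2. Of 32 axon guidance and adhesion genes 4 rose (12.5%, against 7.23%) and none fell: Epha7, Slit2, Plxna1 and Efna2. Slit2, a secreted repellent of the ventral midline, went from 7.55, 8.77, 7.71 and 8.32 to 9.64, 9.27, 9.41 and 10.30 (1.57 ± 0.33, adjusted p = 0.00417), and the control rise was 1.36 ± 0.36.

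Genes with a known part in closing the neural tube were divided. Of 25 tested 4 rose (16%, against 7.23% of all probes) and 1 fell (4%, against 6.59%), and the median was -0.03. Marcks, a membrane-bound actin regulator, rose from 11.55, 11.41, 10.85 and 11.04 to 12.41, 14.03, 12.96 and 12.91 (1.86 ± 0.39, adjusted p = 0.00387). Its paralogue Marcksl1 fell, from between 7.67 and 7.96 to between 7.19 and 7.34 (a fall of 0.57, adjusted p = 0.000356). Epha7, an ephrin receptor with a part in fold fusion, rose by 2.22 ± 0.35 against 1.09 ± 0.38 in the controls. The scaffold Dvl1 of Wnt signalling rose by 0.43 and Cited2, a transcriptional co-regulator, by 0.97, the latter not past the threshold without GD8:15 replicate 1, 3 or 4 or GD9:12 replicate 1, 2 or 3.

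In the folate pathway, 1 gene of 15 rose and 1 fell (6.67% each, near the 7.23% and 6.59% of all probes). Folr1, the other membrane folate receptor, went from 9.47, 9.79, 10.80 and 9.60 to 9.05, 8.55, 8.71 and 8.88, a fall of 1.12 (SE 0.30, adjusted p = 0.0188). The stages did not overlap, but the call was lost without arsenic GD8:15 replicate 3, the highest array, and without GD9:12 replicate 2. It was also lost with the authors' scaling as deposited (-0.52, adjusted p = 0.203), and held under 16 of 20 other settings, the title series apart. The control difference was -0.24 ± 0.32. Ggh, which trims the glutamate tail of folates, rose by 1.18 and by 1.15 in the controls.

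Retinoic acid is made by aldehyde dehydrogenases. Aldh1a2, which makes most of it in the early embryo, stood at 9.13, 9.39, 9.98 and 9.50 at GD8:15 and at 7.72, 7.52, 7.59 and 7.56 at GD9:12. It fell by 1.91 (SE 0.36, 3.75-fold, adjusted p = 0.00191), and passed the threshold under 20 of 20 other settings, the title series apart. The control value was -0.77 ± 0.38 (adjusted p = 0.255), and the difference between the arms had an unadjusted p of 0.0442. Aldh1a1 and the receptor Rxrb rose by 0.46 and 0.49. Of the 10 tested genes of the pathway 2 thus rose (20%, against 7.23% of all probes) and 1 fell (10%, against 6.59%). In the controls 2 of the 10 rose, where 3.77% of all probes did, and none fell.

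Progenitor and neuronal genes did not shift together. Of 16 neural progenitor genes 1 rose and 1 fell (6.25% each, near the 7.23% and 6.59% of all probes). Fabp7, a fatty-acid binding protein of radial glia, rose by 1.29 ± 0.27, and Tead2, a partner of Yap, fell by 1.27 (adjusted p = 0.000356). Sox2 differed by -0.10 ± 0.31 and turned positive, to 0.11, with the authors' scaling. Of 25 neuronal genes 4 fell (16%, against 6.59% of all probes) and 1 rose (4%, against 7.23%). With the authors' scaling as deposited 1 fell and 4 rose, and centred on the median 4 fell and 4 rose. Crmp1, Neurog3, Snap25 and Stmn2 were the genes that fell, by 1.14, 0.70, 0.88 and 0.48, and Cdkn1c, the inhibitor that takes cells out of the cycle, rose by 1.39. Snap25, a part of the vesicle fusion machinery, had a control value of 0.20 ± 0.28 and lost its call without GD8:15 replicate 1 or 2 or GD9:12 replicate 1, 2 or 3. Stmn2 lost it without GD8:15 replicate 1 or 4 or GD9:12 replicate 3 or 4.

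Of 35 cell cycle genes 4 rose (11.4%, against 7.23% of all probes) and 1 fell (2.86%, against 6.59%), with a median of 0.02. With the authors' scaling centred on the median 7 rose and 2 fell. Cdc20, the activator of the anaphase-promoting complex, went from 10.12, 9.17, 8.87 and 9.67 to 7.97, 7.83, 7.98 and 7.70, a fall of 1.58 (SE 0.20, adjusted p = 0.000113). Mki67, present in dividing cells, rose by 1.23, Bub1 of the spindle checkpoint by 0.60, and the cyclins Ccnd3 and Ccnd1 by 0.56 and 0.52. Among 44 DNA replication genes 2 rose, Gmnn and Gins1, and 2 fell, Rfc1 and Mcm3, each 4.55%, against 7.23% and 6.59% of all probes. None fell and 7 or 11 rose with the authors' scaling (centred on the median or as deposited). Calls here often hung on 1 array: Ccnd1 lost its call without any array but GD8:15 replicate 2, Gins1 without any but GD8:15 replicate 4 and GD9:12 replicate 4, Bub1 without GD8:15 replicate 1 or 4 or GD9:12 replicate 1 or 4, Mcm3 without GD8:15 replicate 1 or 4 or GD9:12 replicate 3 or 4, and Ccnd3 without GD9:12 replicate 2.

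**Figure D4:**
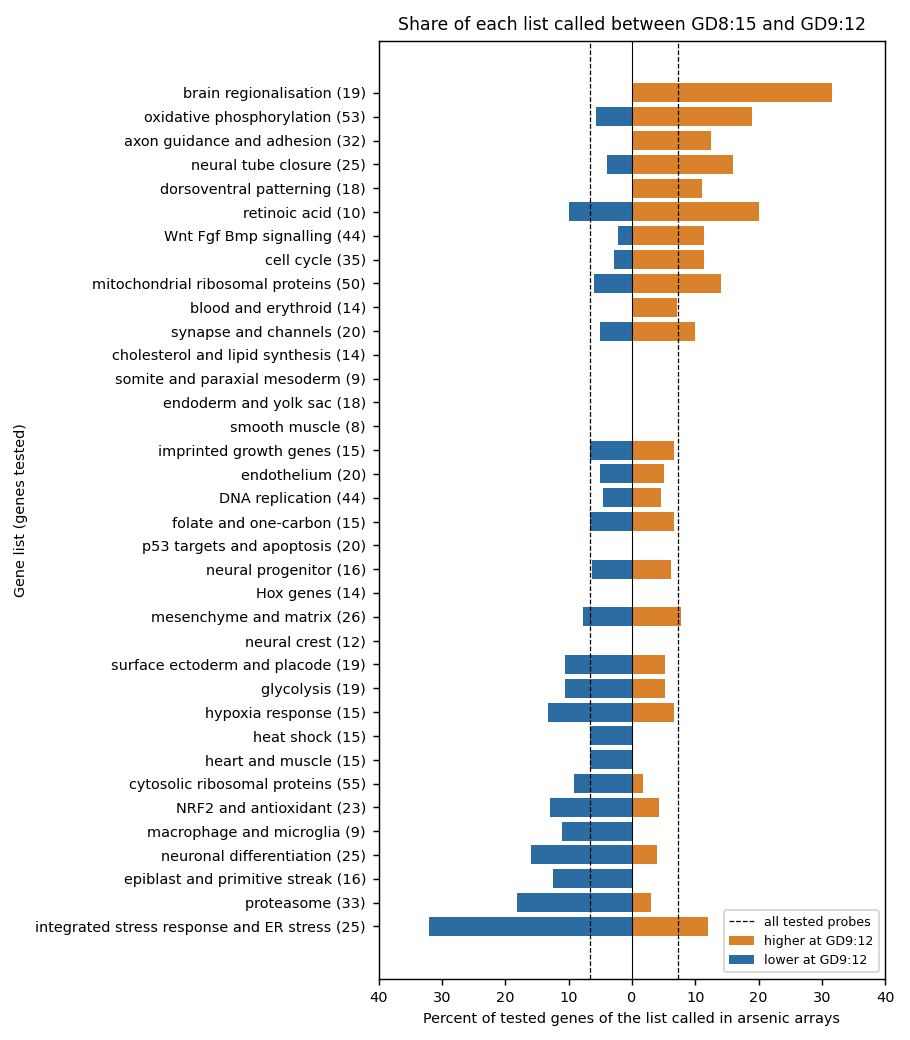
Percent of the tested genes of each list (rows, with the number tested in brackets; lists with at least 8) called higher (orange, right) or lower (blue, left) at GD9:12 in the arsenic arrays; dashed lines mark 7.23% and 6.59% of all tested probes. The bar of brain regionalisation reaches 31.6% on the right with none on the left, and that of the stress response reaches 32% on the left.

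Of 53 tested oxidative phosphorylation genes 10 rose (18.9%, against 7.23% of all probes) and 3 fell (5.66%, against 6.59%), with a median of 0.39. The controls had 4 rises, 3 falls and a median below 0.01, where 3.77% of all probes rose and 3.95% fell. Ndufb9, a subunit of complex I, went from 12.16, 11.76, 11.14 and 11.95 to 13.30, 13.17, 12.95 and 12.53 (1.23 ± 0.20, adjusted p = 0.000667). Cytochrome c (Cycs), Cox7b and Uqcrb rose by 1.61, 1.43 and 0.95. Cox6a1, of cytochrome c oxidase, rose by 0.76 with -0.02 in the controls, and Atp5b, the catalytic subunit of ATP synthase, by 0.70 with -0.16. Cycs lost its call without GD8:15 replicate 1 or 3 or GD9:12 replicate 2 or 3. Atp5g2, Atp5j2 and Ndufa7 fell, Atp5j2 and Ndufa7 not past the threshold with the authors' scaling centred on the median (-0.09 and -0.43). Uqcrb, Cox6a1 and Atp5b were not called with cyclic loess (0.50, 0.30 and 0.54). The counts moved with the scaling: 23 rose and 1 fell with the authors' scaling centred on the median, and 6 rose and 4 fell with cyclic loess.

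Mitochondrial ribosomal proteins had 7 rises and 3 falls among 50 genes (14% and 6%, against 7.23% and 6.59%). The authors' scaling gave 18 rises and 1 fall centred on the median and 21 and 2 as deposited, and cyclic loess gave 6 and 4. Mrps5 rose by 1.64 and Mrpl13 by 1.46, while Mrpl37 fell by 1.26. Mrpl4 fell by 0.79 but was at 0.32 with the authors' scaling, and lost its call without GD8:15 replicate 1 or 3 or GD9:12 replicate 2 or 4. The cytosolic ribosomal proteins, among the brightest probes, had 5 falls (9.09%, against 6.59% of all probes) and 1 rise (1.82%, against 7.23%) among 55. Rpl9, Rpl27a, Rps4l, Rps18 and Rpl13 fell and Rps27l rose, and Rps18 lost its call without GD9:12 replicate 4. The authors' scaling centred on the median took the calls of Rpl9 (-1.06, adjusted p = 0.0847), Rpl27a (-0.82, adjusted p = 0.29) and Rps18 (-0.77, adjusted p = 0.382). As deposited Rpl13 was at -0.07 (adjusted p = 0.94). The direction of the cytosolic ribosomal proteins as a group is not settled, since 12 rose and 1 fell with the authors' scaling centred on the median, and 1 rose and 13 fell with cyclic loess.

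Proteasome genes had 6 falls (18.2%, against 6.59% of all probes) and 1 rise (3.03%, against 7.23%) among 33. In the controls 3 of the 33 fell, where 3.95% of all probes did. Under arsenic Psma7, a core subunit, fell by 1.22, Psmb6, a catalytic one, by 1.77 and Psmc1, of the cap, by 1.16. Psmc6, of the same cap, rose by 1.15, but not past the threshold without GD8:15 replicate 1 or 3 or GD9:12 replicate 2 or 3. The median of -0.23 became 0.24 with the authors' scaling centred on the median, where 2 fell and 3 rose, and Psma7 (-0.52, adjusted p = 0.371) and Psmb6 (-1.10, adjusted p = 0.126) were not called. In glycolysis Pkm rose while Ldha, which turns pyruvate into lactate, fell from 12.78, 12.95, 12.38 and 13.91 to 11.28, 10.99, 11.32 and 10.26, by 2.04 (SE 0.38, adjusted p = 0.00194). In the controls it fell by 2.94, and with the authors' scaling centred on the median the adjusted p was 0.225. Among 15 hypoxia genes Mif and Ldha fell (13.3%, against 6.59% of all probes) and Ddit4 rose, by 0.81 (6.67%, against 7.23%). Mif fell by 1.96, but was at -0.90 (adjusted p = 0.154) with the authors' scaling centred on the median, where 6 genes of the list rose and none fell.

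Markers of other tissues were measured because a dissected neural tube can carry neighbouring cells. In RNA from whole tissue, fewer cells of a type and less RNA per cell cannot be told apart. Myl7, the atrial myosin light chain of heart muscle, stood at 12.04, 11.20, 12.45 and 10.27 at GD8:15 and at 8.86, 8.85, 8.59 and 9.15 at GD9:12. It fell by 2.62 (SE 0.52, adjusted p = 0.00283), and in the controls by 4.35 (20.3-fold). Of 15 tested heart and muscle genes this was the only one called under arsenic, and 14 were negative, against 55% of all probes. Actc1, cardiac actin, had a difference of -1.49 (adjusted p = 0.0663) and -2.76 in the controls.

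Of 8 smooth muscle genes none was called in limma and 7 were negative, against 55% of all probes. Cnn1, a calponin, was at -0.72 ± 0.32 under arsenic and -2.10 ± 0.34 in the controls (unadjusted p between the arms 0.00815). Of 19 surface ectoderm genes 2 fell (10.5%, against 6.59% of all probes) and 1 rose (5.26%, against 7.23%). Cdh1 fell by 0.82 and Krt19 by 0.84, and Cldn4 rose by 1.01. The globin Hbb-y rose by 0.77 (not past the threshold without GD8:15 replicate 1 or 3 or GD9:12 replicate 2, 3 or 4), Hba-a1 had 1.70 (adjusted p = 0.174) and Hba-x -0.39 (adjusted p = 0.396). In the endothelial list Tie1 fell by 0.87 and Klf2 rose by 0.91. Of the 3 macrophage markers Tyrobp and Lyz2 were too dim to be tested and Csf1r was not matched on the array. In the macrophage list 1 of 9 tested genes fell (11.1%, against 6.59% of all probes), Aif1 by 0.41 (adjusted p = 0.00381). The 3 yolk sac markers were not called in limma, and neither were 12 neural crest genes. The part of these tissues in the other differences was not tested.

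The sexes of the embryos are not in the labels. Xist, made in female cells, read 9.06, 8.70, 7.86 and 8.08 at GD8:15 and 7.12, 6.93, 7.14 and 7.05 at GD9:12. The stages did not overlap, and the difference of -1.36 ± 0.66 was not called (adjusted p = 0.177); the control value was 1.34 ± 0.72. The Y-linked Eif2s3y rose by 0.57 (adjusted p = 0.0272), with -0.30 in the controls, and lost its call without GD8:15 replicate 1 or 3 or GD9:12 replicate 2 or 3. The part of embryo sex in other differences was not tested.

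The 14 arrays outside the comparison were placed between its 2 stages, probe by probe, over the 1082 called probes. On the 4 control arrays at GD8:15, 13.4% to 33.5% of these probes lay nearer to the arsenic GD9:12 mean than to the GD8:15 mean. At GD9:00 the share was 56.6% to 59.3% on control and 45.1% to 61.6% on arsenic arrays, and at GD9:12 86.9% to 94.2% on control arrays. Among the control arrays the share rose with the stage, and the arsenic arm was placed at GD9:00 alone. The highest share at GD8:15, 33.5%, belonged to control replicate 3, the only array of that stage whose title code opens with the number of the arsenic GD9:12 titles. For 23 of the 30 genes with the highest and lowest differences this array lay nearer to the arsenic GD8:15 mean. These genes were picked for large stage differences, so the count on 1 array does not measure the part of the title series. That part was not tested. The median deposited intensity of this array was 128, against 187, 206 and 219 on the other GD8:15 controls. Zic1 read 7.31, Pkm 7.50 and Fgf18 7.60 on it, and H2az1 11.69, closer to GD9:12.

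**Figure D5:**
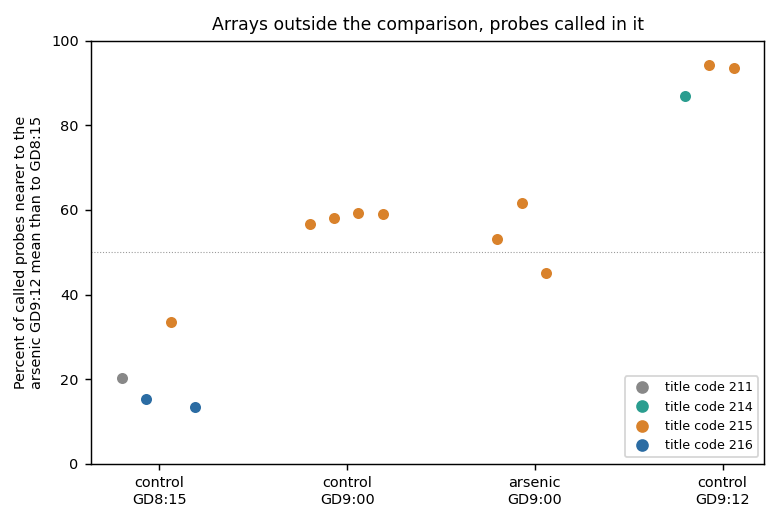
For each of the 14 arrays outside the comparison (points), the percent of the 1082 called probes nearer to the arsenic GD9:12 mean than to the arsenic GD8:15 mean (y axis), by arm and stage (x axis) and coloured by the opening number of the title code. Shares run from 13.4% to 33.5% on GD8:15 controls, from 45.1% to 61.6% at GD9:00 and from 86.9% to 94.2% on GD9:12 controls.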

How the data were processed

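RNA from 22 samples was measured on 1 array each. The deposited values are linear intensities that the authors rounded to whole numbers and scaled to a mean of 600 at GD8:15, 500 at GD9:00 and 1000 at GD9:12, as the files show; the scanner software and background correction are not given in the sources used here. Values of 1 or 2 (838, of which 256 on the 8 arsenic arrays) were taken as placeholders and set to missing. The rest were log2 transformed and quantile normalised over the 22 arrays. A probe was tested with at least 2 values in every group and a mean above the lowest 25%. One limma model (version 3.58.1, R 4.3.3) held 6 group means. Contrasts were the arsenic stage difference, the control one and their difference, adjusted by the Benjamini-Hochberg method over 7830 probes (7187 genes with 1 symbol from the platform annotation). The number of arrays limits the precision. Figures used Python and matplotlib, and the fit was tested on simulated data.

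The members and the 38 gene lists were chosen with earlier results of these data known. Named are the 15 highest and 15 lowest called genes whose stages do not overlap, up to 4 genes of lowest p per list, the 5 per direction of lowest p between the arms, Folr2, Xist, Eif2s3y, Hmox1 and Chac1, and further list members. Each gene of a list is represented by its brightest probe. Alternatives changed the scaling, placeholders, filter, arrays fitted, weights, variance model and title series, or left out 1 array. The removal of drift along the probe numbers was added after seeing the data.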

Additional observations from a re-analysis of the deposited data

Results flagged for a closer look

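Each of 334 sets of 4 arrays (a named gene or an array measure at 1 stage) was searched for a single array far from the other 3, and 15 were found; chance gives about 1 in 20. At GD8:15 they were Mab21l2 (8.07 on replicate 2, others 7.50 to 7.52), Ndufc1 (8.79 on replicate 2, others 7.66 to 7.83), Mrpl20 (14.4 on replicate 1, others 13.1 to 13.3) and Mphosph10 (8.47 on replicate 4, others 9.59 to 9.76). At GD9:12 replicate 1 stood apart for Zic1 (9.06), Fabp7 (8.57), Hoxa5 (7.66), Kdr (8.48) and Jund (12.1). Replicate 4 stood apart for Top1 (13.3), Cnn1 (7.43), Psmc3 (8.22) and Asns (9.03), and replicate 2 for Mrpl57 (8.01). The median deposited intensity of GD9:12 replicate 2 was 174, against 226 to 236 on the other 3 arrays of that stage, and this is the array whose removal lowered the count of calls most.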

How the results depend on the processing

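No paired analysis was possible because the titles carry no replicate numbers that the stages share. The arsenic count of 1082 was 692 with only the 8 arsenic arrays, 1667 with array weights and 7 with the title series as a fixed term, and 694 to 1051 with 1 array left out. The control count of 604 was 974 and 1421 with the authors' scaling (median-centred and as deposited), 2034 with array weights, 47 with the fixed series, and 290 to 580 with 1 array left out, falling to 388, 370, 290 and 312 without control GD8:15 replicate 4 or GD9:12 replicate 1, 2 or 3. The other alternatives left both counts within 1.5 times. No probe passed the limma test between the arms under any of them, the lowest adjusted p being 0.0836 without arsenic GD9:12 replicate 4. The cause of these shifts was not tested. The median of all probes shifted by less than 0.1 under the settings that kept the 8 arsenic arrays, and was not computed with 1 left out.

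Of 3403 pairs of a named gene and an alternative, 2893 kept direction and call, 444 lost the call (140 of them under the fixed series), 53 gained it and 13 reversed. With only the 8 arsenic arrays, losses of call beyond those in the report included Gas1, Krt19, Tie1, Klf2, Aldh1a1 and Rpl13. With the scaling as deposited they included Neurog3, Gpx2, Aldh1a1, Rxrb, Marcksl1, Dvl1 and Efna2. Of the reversals only Mrpl4 had been called: it was 0.32 under both forms of the authors' scaling, where Jund was 0.25 and Sox2 0.11. With 1 array left out, Sox2 ran from -0.33 to 0.0698 (0.00041 without GD9:12 replicate 1) and Obi1 from -0.082 to 0.12, negative without GD8:15 replicate 3 and, at -0.053 and -0.0021, without GD9:12 replicates 1 and 3. Obi1 was -0.021 with array weights and -0.095 with the fixed series. Dim probes near the array floor understate folds.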

Other observations

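Some genes outside the lists had the lowest unadjusted p between the arms, though none passed after adjustment in limma. Mphosph10, a factor of ribosomal RNA processing, rose by 1.38 ± 0.25 under arsenic (from 9.76, 9.70, 9.59 and 8.47 to 10.62, 10.88, 11.05 and 10.48) and was at -0.12 ± 0.27 in the controls. The probe of 1700037H04Rik fell by 1.12 (from between 9.13 and 9.31 to between 7.88 and 8.24), with -0.27 ± 0.14 in the controls, and that of 2310076G13Rik rose by 1.03 against 0.42. Jund, an AP-1 subunit, was at -0.91 (adjusted p = 0.0894) against 1.09 in the controls, and Mdh1, cytosolic malate dehydrogenase, at 0.74 against -0.94. Pgam2 and Obi1 were at -0.33 and 0.02, with falls of 1.28 and 0.84 in the controls, and 4930550L24Rik was at -0.24 against 0.28.

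Genes that rose spanned more of the genome than genes that fell. The median span from first to last base in RefSeq was 26.5 kb for genes called higher under arsenic and 13.7 kb for those called lower, against 20.1 kb for all tested genes. The control calls gave 26.6 and 12.2 kb. Among the 1813 tested genes with the shortest spans 5.07% were called higher and 8.77% lower, and among the 1811 with the longest 8.83% and 4.58%. Across 7243 genes, which share arrays and are not independent, the Spearman correlation of span and difference was 0.112. Whether span has a part in any named difference was not tested.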
